A study of Homo sapiens with 8 samples.

Results

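The genes that copy DNA and supply its building blocks were examined in docetaxel sensitive and docetaxel resistant variants of 2 human prostate cancer cell lines, DU145 and PC3, both established from metastases. The set held 52 genes named by symbol with earlier results of these data known, of 60554 gene rows in the files. All 52 had enough counts to be tested. They fall into 18 genes of origin licensing and the replicative helicase, 18 of the DNA polymerases, the sliding clamp and its loader, 6 of nucleotide supply, and 10 of chromatin assembly, the E2F factors and the replication fork. RNA was measured by bulk RNA-seq in 4 groups of 2 libraries, the sensitive and the resistant variant of each line. Resistant cells were kept at 10 nM docetaxel, a taxane that stabilises microtubules, and sensitive cells in 0.1% DMSO, all in RPMI 1640 medium with serum. Each variant is a selected population of its line, and the study's methods describe a period without docetaxel before capture for its single cell samples. Whether that period also applied to these bulk libraries is not stated. The labels do not say if both libraries of a variant were grown as separate cultures, and the p-values therefore reflect the spread between 2 libraries, which may be technical.

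Replication starts where the origin recognition complex, CDC6 and CDT1 load the MCM helicase, a ring of MCM2 to MCM7, onto DNA in G1. In S phase the kinase CDC7 and its activator DBF4 switch the ring on, CDC45 and the GINS complex join it, and the polymerases follow with the clamp PCNA, which the RFC complex loads, and with the single strand binding complex RPA. Ribonucleotide reductase, thymidylate synthase and thymidine kinase supply the deoxynucleotides, and E2F factors switch on the transcription of many of these genes before S phase. Levels of these RNAs rise and fall with the cell cycle, and in bulk RNA fewer cells in S phase cannot be told apart from less RNA per cell.

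The promoters of the set show what its genes share beyond their function. RefSeq promoter windows (assembly GRCh38.p14, 250 bases before to 50 bases after a start) were matched by symbol for 44 of the 52 genes. MCM4, MCM5, GINS4, POLD3, RPA2, DNA2, E2F8 and WDR76 were not matched. The letters TTTCCCGC, TTTCGCGC, TTTGCCGC or TTTGGCGC, forms of the site that E2F factors bind, stood on either strand in 25 of 44 genes (56.8%), against 1090 of 27305 genes in the promoter table (3.99%) and 728 of the 11932 of them that were tested here (6.1%). CCAAT, the box bound by NF-Y, stood on either strand in 26 of 44 (59.1%), against 39.7% of all genes in that table. TTTGAA, the letters of the cell cycle homology region (CHR) element of genes that peak in mitosis, stood in 2 of 44 (4.55%), against 18.2%. These are matches of letters and not measured sites. The 250 bases before a start are shown for CDC7, RPA1, RFC2 and TIPIN, the genes with a window that passed the test in both lines, and for E2F1 as an example with E2F and CCAAT letters side by side. They run 5′ to 3′ with E2F and CCAAT letters in capitals, at chr1:91500862-91501111 on the plus strand for CDC7 (the second of its 2 windows), chr15:66356686-66356935 on the minus strand for TIPIN (the second of 2), chr20:33686386-33686635 on the minus strand for E2F1, chr7:74254400-74254649 on the minus strand for RFC2 and chr17:1829755-1830004 on the plus strand for RPA1.
CDC7: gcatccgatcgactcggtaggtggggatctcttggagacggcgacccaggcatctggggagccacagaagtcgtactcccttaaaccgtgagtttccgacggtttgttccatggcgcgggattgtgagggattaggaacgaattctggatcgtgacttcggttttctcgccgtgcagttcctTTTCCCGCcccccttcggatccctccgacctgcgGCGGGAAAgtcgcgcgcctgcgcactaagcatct
TIPIN: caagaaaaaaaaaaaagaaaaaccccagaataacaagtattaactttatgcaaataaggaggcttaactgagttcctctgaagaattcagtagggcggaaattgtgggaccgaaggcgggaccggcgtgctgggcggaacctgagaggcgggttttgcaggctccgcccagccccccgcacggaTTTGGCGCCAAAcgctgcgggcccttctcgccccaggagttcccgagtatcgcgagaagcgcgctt
E2F1: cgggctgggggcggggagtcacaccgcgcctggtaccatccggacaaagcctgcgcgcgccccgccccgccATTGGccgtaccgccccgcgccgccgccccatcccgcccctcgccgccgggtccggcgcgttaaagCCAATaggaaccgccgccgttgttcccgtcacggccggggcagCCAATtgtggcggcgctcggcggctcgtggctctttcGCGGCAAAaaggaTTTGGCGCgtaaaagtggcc
RFC2: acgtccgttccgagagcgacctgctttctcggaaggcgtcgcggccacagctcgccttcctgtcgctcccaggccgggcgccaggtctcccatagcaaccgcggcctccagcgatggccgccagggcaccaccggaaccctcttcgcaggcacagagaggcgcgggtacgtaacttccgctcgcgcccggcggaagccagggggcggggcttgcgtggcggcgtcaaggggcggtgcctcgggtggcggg
RPA1: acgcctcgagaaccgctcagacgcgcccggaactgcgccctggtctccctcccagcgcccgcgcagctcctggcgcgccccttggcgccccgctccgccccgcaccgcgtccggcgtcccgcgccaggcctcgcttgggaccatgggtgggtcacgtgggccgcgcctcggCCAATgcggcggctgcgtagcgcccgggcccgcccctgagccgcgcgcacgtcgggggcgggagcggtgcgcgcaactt
The shown windows of CDC7 and E2F1 each hold 2 E2F matches, and in that of TIPIN 2 matches on opposite strands overlap. The first windows of CDC7, at chr1:91500601-91500850, and of TIPIN, at chr15:66386718-66386967, lie beside the annotated gene starts and hold no E2F letters. The windows shown for CDC7, TIPIN and RPA1 lie inside the annotated genes, and that of RFC2 lies partly inside. RFC2 holds neither motif in these bases and RPA1 holds 1 CCAAT. The genes with E2F letters had a median log2 fold change, resistant over sensitive, of 0.18 in DU145 and 0.15 in PC3, and those without had 0.29 and 0.11.

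The libraries held 31685148 to 43045127 counts each, and the 52 genes together took 0.456% to 0.760% of them. Mitochondrial genes took 0.501% to 2.07%. The epithelial gene EPCAM stood at 16.9 to 51.6 CPM (counts per 1000000, scaled between libraries) in all 8 libraries. Of the 7 markers of these lines that were listed, 2 rose (VIM and CD44) and 3 fell (KRT8, KRT18 and CDH1) in DU145, and 1 rose (CDH1) and 2 fell (CDH2 and VIM) in PC3. The keratin KRT8 had a log2 fold change of -5.88 in DU145, and E-cadherin CDH1 stood at 24.2 and 20.9 CPM in DU145 sensitive and at 0.363 and 0.472 CPM in DU145 resistant libraries. Of the 5 prostate genes of the androgen axis, KLK2 and KLK3 had no counts, and TMPRSS2 rose in PC3 to 1.61 and 2.05 CPM. The 5 summed to 20.6 and 21.5 CPM in DU145 sensitive and to 34.4 and 34.5 CPM in DU145 resistant libraries. In PC3 they summed to 5.93 and 6.21 CPM in the sensitive and to 14.3 and 16.4 CPM in the resistant libraries. Only 2 of them were tested, and 1 rose in DU145 and 2 in PC3. Of the other cell types, 5 fibroblast markers summed to 24.4 to 35.6 CPM in PC3 sensitive and 24.5 to 29.8 CPM in PC3 resistant libraries, nearly all of it COL1A1, and to at most 7.06 CPM in DU145. The 4 endothelial markers summed to 7.09 and 7.23 CPM in PC3 sensitive and to 20 and 49 CPM in PC3 resistant libraries, mostly PECAM1 and KDR, with VWF at most 0.291 CPM and CDH5 at most 0.841 CPM in any library. The 5 immune markers summed to at most 6.77 CPM, with CD3E at 0. The part of these genes in the results below was not tested.

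The 2 libraries of a group differed in one direction across the replication genes. In the DU145 sensitive group all 52 genes were lower in library 2 than in library 1, with a median log2 difference of -0.44 and a range from -0.89 for MCM10 to -0.08 for CDT1. In the DU145 resistant group 48 of 52 were lower in library 2 (median -0.32), in PC3 sensitive 48 (median -0.25) and in PC3 resistant 43 (median -0.34). In all 4 groups together, 38 of 52 genes were lower in library 2 every time. Over the 20238 tested genes the same median lay between -0.0021 and 0.0006. No replication gene differed more than 2-fold between the libraries of a group.

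**Figure D1:**
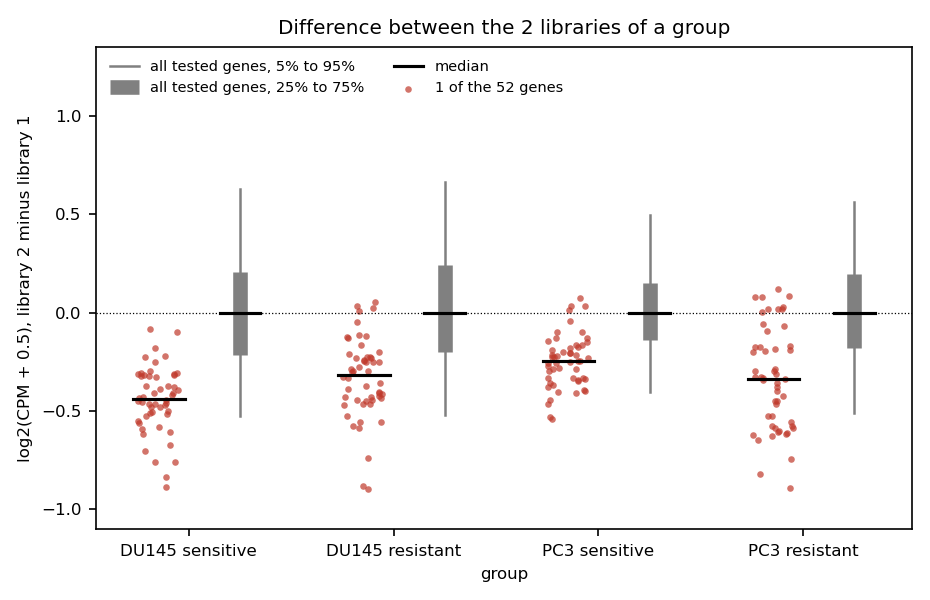
Difference between library 2 and library 1 of each group, on the y axis as log2(CPM + 0.5), for each of the 52 replication and nucleotide genes (red points, black bar at the median) and for all tested genes (gray bars, 5% to 95% and 25% to 75%, black bar at the median). The red medians lie at -0.44, -0.32, -0.25 and -0.34, while the medians of all genes lie at 0.

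Genes of mitosis did not share this shift in every group. Of 20 mitotic genes, which include MKI67, CDK1 and CCNB1, 16, 19 and 18 were lower in library 2 of DU145 sensitive, DU145 resistant and PC3 sensitive (medians -0.14, -0.37 and -0.14). In PC3 resistant 19 of 20 were higher in library 2 (median 0.33), where 43 of 52 replication genes were lower. For the 52 genes, the median differences between libraries of 1 group stand beside median differences between variants of 0.29 in DU145 and 0.14 in PC3. From the mean of its line, the median replication gene stood at 0.07 and -0.36 on the log2 scale in the DU145 sensitive libraries and at 0.29 and -0.01 in the resistant ones. In PC3 it stood at 0.04 and -0.22 in the sensitive and at 0.19 and -0.06 in the resistant libraries.

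**Figure D2:**
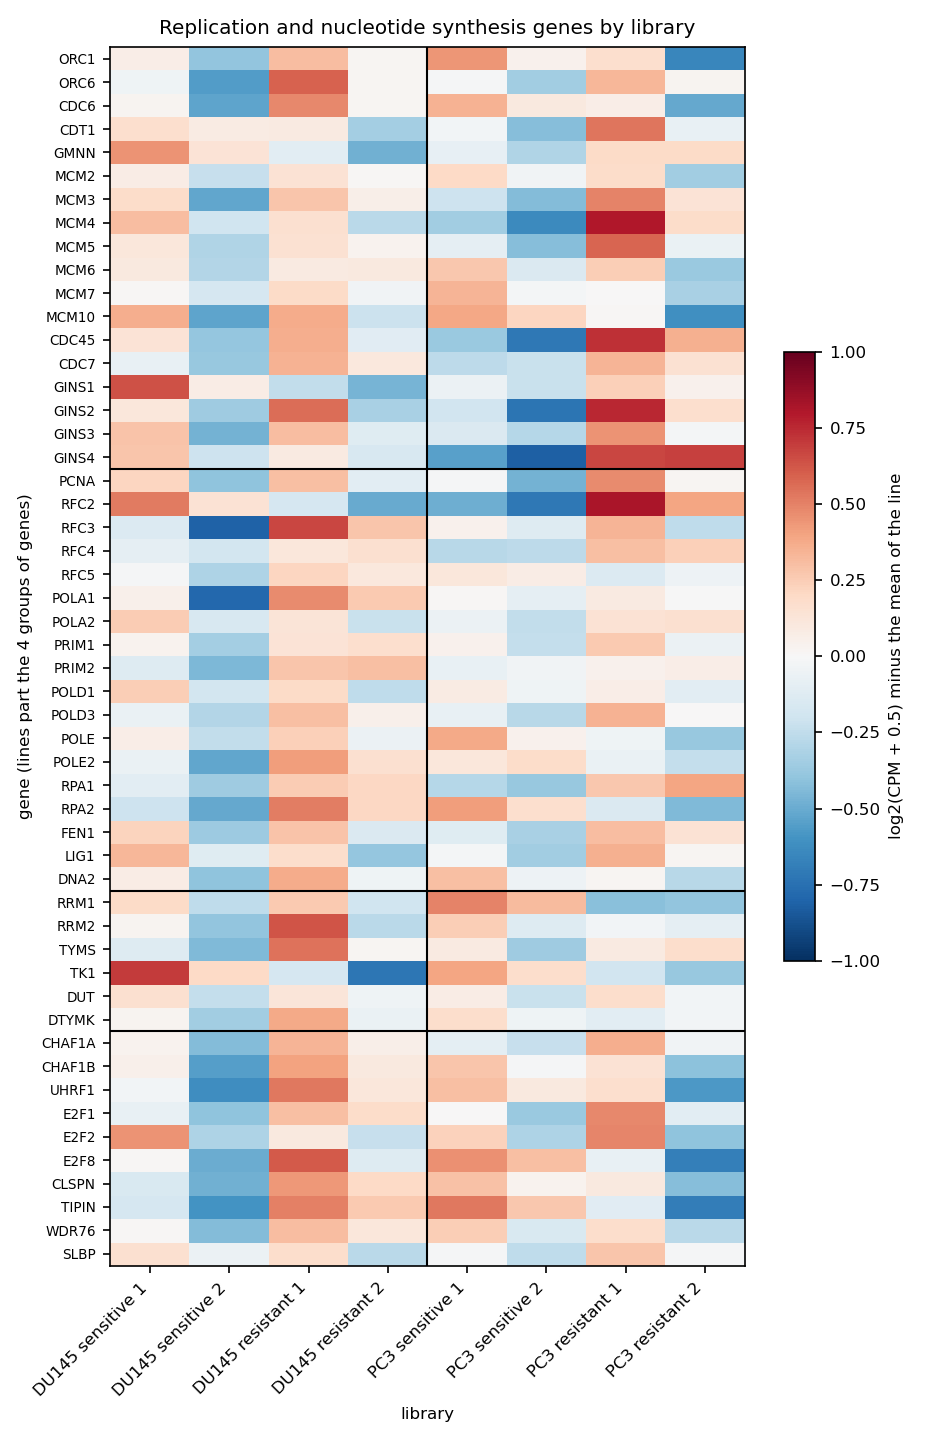
Level of each of the 52 genes (rows, black lines part licensing and helicase, polymerases and clamp, nucleotide supply, and chromatin, E2F and fork) in each of the 8 libraries (columns), as log2(CPM + 0.5) minus the mean of the 4 libraries of the line. Library 2 of DU145 sensitive is blue in nearly every row, while RFC2, GINS4 and RRM1 in PC3 differ between variants in both libraries.

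The replication genes did not all move in 1 direction in resistant cells. Within each line, the resistant variant was set against the sensitive one by edgeR's quasi-likelihood test over all tested genes, and an adjusted p under 0.05 was the threshold. In DU145, 9 of the 52 genes rose (17.3%, against 12.4% of all tested genes) and 4 fell (7.69%, against 15.4%), while 39 did not pass. In PC3, 9 rose (17.3%, against 18.6% of all tested genes) and 3 fell (5.77%, against 17.0%), while 40 did not pass. The median log2 fold change of the 52 was 0.29 in DU145 and 0.14 in PC3, against 0 and 0.01 over all tested genes. Both resistant libraries lay above both sensitive libraries for 20 of 52 genes in DU145 and 22 in PC3, where 29.2% and 36.1% of all tested genes did so, and below them for 4 and 10, where 32.1% and 35.1% of all genes did so. With the replicate number added to the fit as a block, which takes out a shared difference between library 1 and library 2, more members passed. In DU145 20 then rose (38.5%, against 16.0% of all tested genes) and 4 fell (7.69%, against 18.7%), and in PC3 19 rose (36.5%, against 21.5%) and 11 fell (21.2%, against 20.7%). Without the block, every DU145 call was lost in at least 1 of the fits that left out 1 library. So was every PC3 call other than CDC45, GINS4 and RFC2. Such a fit leaves 1 library in a group, and the share of all tested genes that passed in it is not given here. No call turned direction. Without DU145 sensitive replicate 2, for example, RFC3 had a log2 fold change in DU145 of 0.62, against 0.92 with all libraries.

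Of the 52 genes, CDC7 and RPA1 rose in both lines by edgeR's test, and none fell in both. The matching counts over all tested genes are not given here, so the overlap of the lines is a description of these genes only. At an unadjusted p under 0.05, TK1 was lower in both, and with DESeq2 it also passed in both (adjusted p = 0.0445 in PC3). RFC2 fell in DU145 and rose in PC3, and RPA2 and TIPIN rose in DU145 and fell in PC3. With the block, 6 genes rose in both lines (ORC6, CDC7, POLD3, RPA1, CHAF1A and E2F1) and TK1 fell in both. In 32 genes neither comparison passed without the block, and these include the helicase subunits MCM2, MCM5, MCM6 and MCM7, the clamp PCNA, the loaders CDC6 and CDT1, the reductase subunit RRM2, thymidylate synthase TYMS and E2F1. Of these 32, 20 passed in at least 1 line with the block, among them MCM5, MCM7, PCNA, CDC6, CDT1, TYMS and E2F1. MCM2, MCM6 and RRM2 passed in neither line in that fit too. Over all tested genes, calls also rose with the block, from 12.4% higher and 15.4% lower to 16.0% and 18.7% in DU145. In PC3 they went from 18.6% and 17.0% to 21.5% and 20.7%. How many of all tested genes newly passed, or passed in both lines, with the block is not given here.

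**Figure D3:**
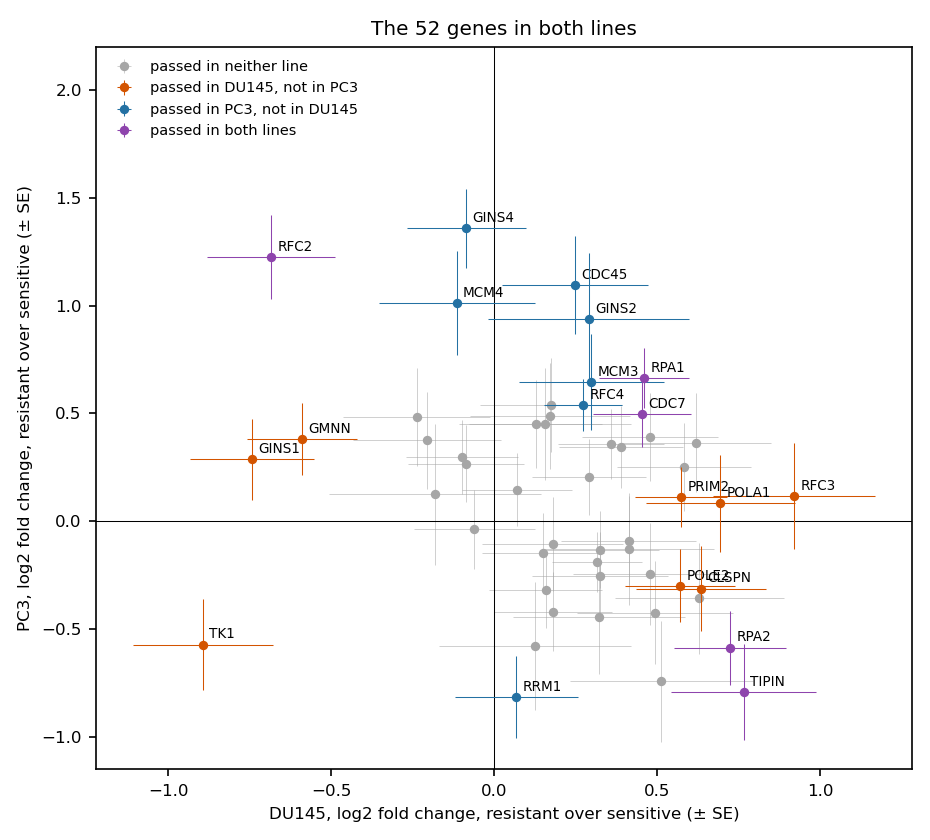
Log2 fold change, resistant over sensitive, of the 52 genes in DU145 (x axis) and PC3 (y axis), with bars of 1 standard error. Purple points passed the test in both lines: CDC7 and RPA1 lie upper right, RFC2 upper left, and RPA2 and TIPIN lower right.

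Among the 18 licensing and helicase genes, 1 rose and 2 fell in DU145 and 6 rose and none fell in PC3, with median log2 fold changes of 0.17 and 0.42. The shares were 5.56% and 11.1% in DU145, against 12.4% and 15.4% of all tested genes, and 33.3% and 0% in PC3, against 18.6% and 17.0%. In PC3 none was lower at an unadjusted p under 0.05 by edgeR, or past the threshold with DESeq2. Other settings gave falls in PC3: with the replicate block ORC1 (-0.48, adjusted p = 0.0208), CDC6 (-0.45, adjusted p = 0.0103), MCM7 (-0.32, adjusted p = 0.0408) and MCM10 (-0.62, adjusted p = 0.00766) by edgeR, beside 10 rises, without a filter MCM10 (adjusted p = 0.0161), and without PC3 resistant replicate 1 ORC1 (adjusted p = 0.0279). With the block the shares in PC3 were 55.6% higher and 22.2% lower, against 21.5% and 20.7% of all tested genes. GINS4, a subunit of the GINS complex, stood at 40.6 and 33.6 CPM in the PC3 sensitive libraries. In the PC3 resistant ones it stood at 94.6 and 95.8 CPM. The groups lay far apart and the 2 resistant libraries were nearly equal, with a log2 fold change of 1.36 ± 0.18 (SE, adjusted p = 0.000297). In DU145 the same gene overlapped, at 40.1 and 28.6 CPM against 35.2 and 29.5 CPM. Exons of GINS4 overlap a lncRNA on the opposite strand over 1145 bases, and the sources used here do not give whether the counting used strand.

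CDC45, the helicase activator that travels with the MCM ring, stood at 51.2 and 40.2 CPM in PC3 sensitive and at 110 and 85.0 CPM in PC3 resistant libraries (log2 fold change 1.10 ± 0.23, adjusted p = 0.00369). GINS2 stood at 49.4 and 33.8 CPM against 95.8 and 63.6 CPM (0.94 ± 0.31, adjusted p = 0.0351), with the higher value of each group in library 1. Both genes overlapped between variants in DU145, with log2 fold changes of 0.25 ± 0.22 and 0.29 ± 0.31. CDC45 and GINS4 passed in PC3 with any 1 library left out, and GINS2 lost the call without PC3 sensitive replicate 2 or PC3 resistant replicate 1.

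Not all subunits of the MCM ring passed the test, and differences between subunits were not tested. MCM4 rose in PC3, from 239 and 196 CPM to 531 and 347 CPM (1.01 ± 0.24, adjusted p = 0.00831), and MCM3 rose from 289 and 247 CPM to 471 and 367 CPM (0.64 ± 0.22, adjusted p = 0.0444). MCM4 lost its call without PC3 sensitive replicate 2 or PC3 resistant replicate 1, and MCM3 without either of these or PC3 sensitive replicate 1. MCM5 had 123 and 97.2 CPM in PC3 sensitive and 196 and 125 CPM in PC3 resistant libraries (0.54 ± 0.22, adjusted p = 0.0779), so its groups did not overlap but the test was not passed. By edgeR it passed with the replicate block (adjusted p = 0.0084), without a filter (adjusted p = 0.00553) and without PC3 resistant replicate 2 (adjusted p = 0.0182). The other 3 subunits overlapped between the PC3 variants: MCM2 had 167 and 142 CPM against 165 and 114 CPM, MCM6 had 201 and 151 CPM against 198 and 129 CPM, and MCM7 had 387 and 302 CPM against 307 and 245 CPM. In DU145 all 6 overlapped, with log2 fold changes from -0.11 ± 0.24 for MCM4 to 0.30 ± 0.22 for MCM3. For example MCM4 had 537 and 378 CPM in the sensitive and 485 and 360 CPM in the resistant libraries.

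Of the regulators among the licensing and helicase genes, CDC7 rose in both lines. It stood at 78.4 and 63.2 CPM in DU145 sensitive and 105 and 89.0 CPM in DU145 resistant libraries (0.46 ± 0.15, adjusted p = 0.0449), and at 58.9 and 60.4 CPM against 89.5 and 78.6 CPM in PC3 (0.50 ± 0.15, adjusted p = 0.0261). The DU145 call was lost in 6 of the 8 fits that left out 1 library, and the PC3 call without PC3 sensitive replicate 1, PC3 sensitive replicate 2 or PC3 resistant replicate 1. GMNN, geminin, which keeps CDT1 from loading the helicase again, fell in DU145 from 83.5 and 66.9 CPM to 56.5 and 43.5 CPM (-0.59 ± 0.17, adjusted p = 0.0236) and stood at 60.0 and 51.7 CPM against 72.7 and 72.8 CPM in PC3, where it passed as higher with the replicate block (adjusted p = 0.0267) and with PC3 alone (adjusted p = 0.0325). GINS1 fell in DU145 from 53.8 and 36.3 CPM to 29.0 and 24.8 CPM (-0.74 ± 0.19, adjusted p = 0.0143). The loaders CDC6 and CDT1 passed in neither line. With the replicate block, CDC6 rose in DU145 (0.50, adjusted p = 0.00693) and fell in PC3 (-0.45, adjusted p = 0.0103), and CDT1 rose in PC3 (0.47, adjusted p = 0.0217), by edgeR. CDC6 had 133 and 90.5 CPM against 183 and 132 CPM in DU145, and 114 and 95.4 CPM against 93.4 and 62.4 CPM in PC3. CDT1 had 49.4 and 46.6 CPM against 46.8 and 34.7 CPM in DU145, and 37.1 and 28.0 CPM against 55.1 and 35.9 CPM in PC3.

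Among the 18 polymerase, clamp and strand processing genes, 6 rose and 1 fell in DU145 and 3 rose and 1 fell in PC3, with median log2 fold changes of 0.30 and 0.16. The shares were 33.3% and 5.56% in DU145, against 12.4% and 15.4% of all tested genes, and 16.7% and 5.56% in PC3, against 18.6% and 17.0%, so the PC3 rises were near the share of all genes. With the replicate block the counts were 8 and 1 in DU145 (44.4% and 5.56%, against 16.0% and 18.7% of all tested genes). In PC3 they were 7 and 2 (38.9% and 11.1%, against 21.5% and 20.7%). RFC2, a small subunit of the clamp loader, changed in opposite directions. It stood at 50.9 and 39.1 CPM in DU145 sensitive and 31.3 and 24.8 CPM in DU145 resistant libraries (-0.68 ± 0.20, adjusted p = 0.0244). In PC3 it stood at 52.8 and 45.2 CPM in the sensitive and 131 and 97.9 CPM in the resistant libraries (1.23 ± 0.20, adjusted p = 0.00082), so the sensitive lines were alike and the resistant variants parted. The PC3 rise passed with any 1 library left out, and the DU145 fall was lost without DU145 sensitive replicate 1 or DU145 resistant replicate 2.

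RPA1, the large subunit of the single strand binding complex, rose in both lines, from 297 and 250 CPM to 383 and 371 CPM in DU145 (0.46 ± 0.14, adjusted p = 0.0293) and from 155 and 145 CPM to 227 and 247 CPM in PC3 (0.66 ± 0.14, adjusted p = 0.00392). The DU145 call was lost with 1 line alone and in 5 of the 8 fits that left out a library (either of DU145 resistant or PC3 sensitive, or DU145 sensitive replicate 2), and the PC3 call without PC3 sensitive replicate 2. Its partner RPA2 rose in DU145 from 69.1 and 55.7 CPM to 114 and 92.4 CPM (0.72 ± 0.17, adjusted p = 0.0103) and fell in PC3 from 142 and 120 CPM to 96.0 and 78.1 CPM (-0.59 ± 0.17, adjusted p = 0.0218). In each line the RPA2 groups did not overlap. Reads of RPA2 could be shared with 3 annotated pseudogene copies.

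RFC3 had the largest rise of the set in DU145, from 85.2 and 53.2 CPM to 149 and 114 CPM (0.92 ± 0.25, adjusted p = 0.0185), and overlapped between variants in PC3, at 88.9 and 79.2 CPM against 110 and 72.2 CPM. POLA1, the catalytic subunit of the polymerase that starts each strand, rose in DU145 from 28.1 and 15.5 CPM to 38.0 and 32.7 CPM (0.69 ± 0.23, adjusted p = 0.0447). The primase subunit PRIM2 (0.57 ± 0.14, adjusted p = 0.0117) and the polymerase epsilon subunit POLE2 (0.57 ± 0.17, adjusted p = 0.0275) rose there too. None of these 3 passed in PC3. RFC4 rose in PC3 from 72.8 and 73.5 CPM to 108 and 104 CPM (0.54 ± 0.12, adjusted p = 0.00583), with the libraries of each group closer together than for most of the set. PCNA, the sliding clamp, had 230 and 150 CPM against 245 and 185 CPM in DU145 and 371 and 269 CPM against 519 and 380 CPM in PC3 (0.49 ± 0.25, adjusted p = 0.148), and passed in PC3 with the replicate block (adjusted p = 0.00524). It has 3 annotated pseudogene copies.

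Of the 6 genes of nucleotide supply, TK1 fell in DU145 and RRM1 fell in PC3, and by edgeR's test none rose in either line. The falls made up 16.7% in each line, near the 15.4% of all tested genes in DU145 and 17.0% in PC3. The rises made up 0%, against 12.4% and 18.6%. With DESeq2, TYMS passed as higher in DU145 (adjusted p = 0.0341), and it was also the 1 gene higher there at an unadjusted p under 0.05 in edgeR. It passed there with the replicate block too (adjusted p = 0.0112). TK1, the thymidine kinase of the salvage route, stood at 210 and 148 CPM in DU145 sensitive and 115 and 78.0 CPM in DU145 resistant libraries (-0.89 ± 0.21, adjusted p = 0.0105). In PC3 its resistant libraries also lay below the sensitive ones, at 374 and 320 CPM against 248 and 218 CPM, but the test was not passed (-0.57 ± 0.21, adjusted p = 0.0569). It passed by edgeR with the replicate block (adjusted p = 0.00413), without a filter (adjusted p = 0.0102), with PC3 alone (adjusted p = 0.0116) and without any 1 of the DU145 libraries (adjusted p of 0.0289 to 0.0458). RRM1, the large subunit of ribonucleotide reductase, fell in PC3 from 297 and 263 CPM to 158 and 160 CPM (-0.81 ± 0.19, adjusted p = 0.007) and was 210 and 154 CPM against 221 and 160 CPM in DU145. Its partner RRM2 did not pass in either line, at 258 and 192 CPM against 390 and 210 CPM in DU145 and 556 and 431 CPM against 461 and 441 CPM in PC3. TYMS, thymidylate synthase, had 154 and 124 CPM against 246 and 170 CPM in DU145 (0.58 ± 0.21, adjusted p = 0.057) and 314 and 231 CPM against 315 and 334 CPM in PC3. TYMS shares 967 exon bases with ENOSF1 on the opposite strand, and RRM2 has 3 annotated copies.

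In the group of chromatin assembly, E2F and fork genes, 2 of 10 rose in DU145 and 1 fell in PC3 by edgeR's test, with median log2 fold changes of 0.48 and -0.17. The shares were 20% and 0% in DU145, against 12.4% and 15.4% of all tested genes. In PC3 they were 0% and 10%, against 18.6% and 17.0%. With the replicate block 8 of 10 rose in DU145 (80.0%, against 16.0% of all tested genes) and none fell (0%, against 18.7%). In PC3 2 rose (20.0%, against 21.5%) and 3 fell (30.0%, against 20.7%). TIPIN, which holds the fork together with TIMELESS, rose in DU145 from 32.0 and 23.6 CPM to 51.3 and 43.2 CPM (0.77 ± 0.22, adjusted p = 0.0258). In PC3 it fell from 41.3 and 34.4 CPM to 26.3 and 17.4 CPM (-0.79 ± 0.22, adjusted p = 0.0181). TIPIN shares 579 exon bases with the pseudogene RPL9P25 on the same strand and has 1 annotated pseudogene copy. CLSPN, claspin, an adaptor of the replication checkpoint, rose in DU145 from 42.8 and 34.1 CPM to 64.5 and 55.0 CPM (0.64 ± 0.20, adjusted p = 0.0353). E2F1 had 51.1 and 40.6 CPM against 66.5 and 61.3 CPM in DU145 and 98.3 and 75.6 CPM against 137 and 91.0 CPM in PC3, and passed in neither line, but with the replicate block in both (adjusted p = 0.0122 and 0.033). The chromatin assembly subunit CHAF1A passed in neither line, but with the block in both, and the histone mRNA binder SLBP in neither line in either fit.

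Subunits of 1 complex did not all pass together, and differences between subunits were not tested. Of the GINS complex, GINS1 fell in DU145, GINS2 and GINS4 rose in PC3, and GINS3 passed in neither. All GINS genes were higher in resistant PC3 cells, with log2 fold changes of 0.29, 0.94, 0.45 and 1.36 for GINS1 to GINS4. For each, both resistant PC3 libraries lay above both sensitive ones, as for 36.1% of all tested genes. The clamp loader had a fall of RFC2 and a rise of RFC3 in DU145 and rises of RFC2 and RFC4 in PC3, while RFC5 passed in neither. Its large subunit RFC1 and the third RPA subunit RPA3 are not in the set and come from a wider list of replication genes. RFC1 was named after its values were seen and fell in DU145 (-0.45 ± 0.12, adjusted p = 0.0204). RPA3 fell in DU145 (-0.75 ± 0.17, adjusted p = 0.00763) and rose in PC3 (0.59 ± 0.17, adjusted p = 0.0188), opposite to RPA2 in both lines.

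**Figure D4:**
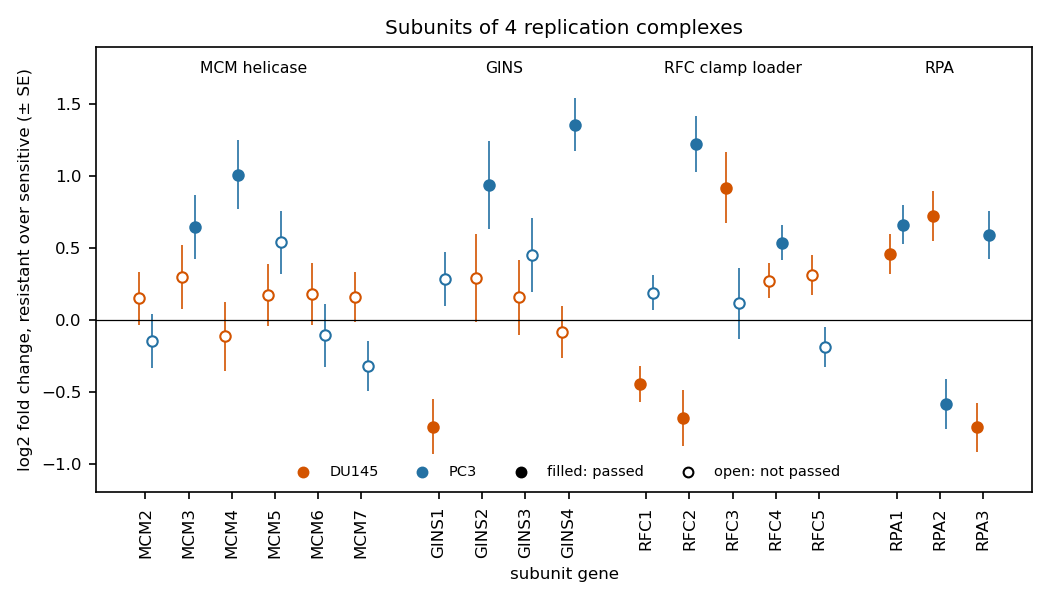
Log2 fold change, resistant over sensitive (y axis), of each subunit gene (x axis) of the MCM helicase, GINS, the RFC clamp loader and RPA in DU145 (orange) and PC3 (blue), with bars of 1 standard error; filled points passed the test. RPA2 and RPA3 lie on opposite sides of 0 in each line, at 0.72 and -0.75 in DU145 and -0.59 and 0.59 in PC3.

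The difference between the lines was tested directly, as the PC3 log2 fold change minus that of DU145. It passed for 11 of 52 genes, 5 higher in PC3 (9.62%, against 18.5% of all tested genes) and 6 lower (11.5%, against 15.9%). With the replicate block 9 were higher (17.3%, against 21.3%) and 17 lower (32.7%, against 19.6%). The 3 largest without it were RFC2 at 1.91 ± 0.28 (adjusted p = 0.000484), TIPIN at -1.56 ± 0.31 (adjusted p = 0.00343) and GINS4 at 1.44 ± 0.26 (adjusted p = 0.00173). RFC2, TIPIN, GINS4 and RPA2 passed in each of the 8 fits that left out 1 library. The other calls were each lost in at least 1 of these fits, and no call turned direction. The share of all tested genes that passed in such a fit is not given here. For CDC7 the lines differed by 0.04 ± 0.21 and for RPA1 by 0.20 ± 0.19, and neither passed.

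In PC3 the direction of a replication gene went with that of the genes beside it on the chromosome. For each of the 52 genes, the tested protein-coding genes within 500 kb were taken from GENCODE 44 (GRCh38), 636 entries for 623 different genes, 2 of them members of the set. This comparison was chosen after the values were seen. All 9 genes that rose in PC3 had neighbours with a median above 0, and 41 of their 80 neighbour entries rose and 1 fell. All 3 genes that fell, RPA2, TIPIN and RRM1, had neighbours with a median below 0, and 24 of their 33 neighbour entries fell and 2 rose. Around the 40 genes that did not pass, 87 of 523 neighbour entries rose and 118 fell. Among all tested protein-coding genes, 72.2% of those that rose in PC3 and 81.7% of those that fell had neighbours with a median on the same side of 0.

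**Figure D5:**
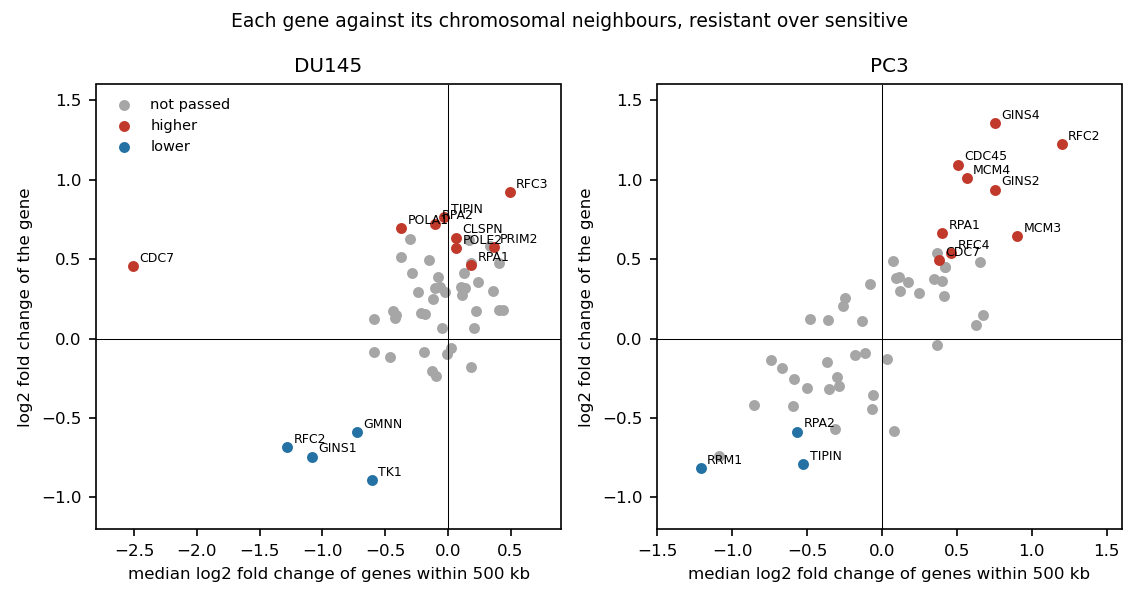
Log2 fold change, resistant over sensitive, of each of the 52 genes (y axis) against the median log2 fold change of the tested protein-coding genes within 500 kb of it (x axis), in DU145 (left) and PC3 (right); red points rose, blue points fell, gray points did not pass. In PC3 all 9 red points lie to the right of 0 and all 3 blue points to the left, and in DU145 the 4 blue points lie to the left while red points lie on both sides.

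Across the 52 genes, the log2 fold change in PC3 and the median of the neighbours had a Pearson correlation of 0.815 and a Spearman correlation of 0.814, as a description, since each gene and its neighbours come from the same libraries. Over all 14648 tested protein-coding genes with a neighbour, the values were 0.249 and 0.434. With 1 library left out at a time the Pearson correlation of the 52 lay between 0.761 and 0.833, so it did not rest on a single library. In DU145 it was 0.389 (Spearman 0.393), against 0.208 and 0.293 over all such genes. All 4 genes that fell in DU145 had neighbours with a median below 0, and 27 of their 40 neighbour entries fell. Of the 9 genes that rose in DU145, 5 (55.6%) had neighbours with a median above 0. Among all tested protein-coding genes, 68.8% of those that rose in DU145 and 68.7% of those that fell had neighbours on the same side of 0. CDC7, which rose, lay apart from the others in DU145, with 3 neighbours at a median of -2.51.

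RFC2, at chromosome 7, 74231499 to 74254458, lay among 11 such genes, of which 8 fell in DU145 and 9 rose in PC3. Next to it LIMK1 had log2 fold changes of -0.93 in DU145 and 0.87 in PC3, EIF4H of -0.80 and 0.94, and GTF2I of -1.28 and 1.00. RPA2, at chromosome 1, 27891524 to 27914746, lay among 17 genes, of which 11 fell in PC3, while in DU145 2 rose and 2 fell. TIPIN, at chromosome 15, 66336191 to 66386746, lay among 9 genes, of which 7 fell in PC3 and 1 rose in DU145. GINS4, on chromosome 8, had 5 such neighbours, of which 4 rose in PC3. RRM1 had 7, of which 6 fell in PC3.

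The wider pathway was described from lists of genes outside the set. Of 33 other replication genes, 9 rose and 5 fell in DU145 and 2 rose and 2 fell in PC3, with median log2 fold changes of 0.19 and 0.04. The shares were 27.3% and 15.2% in DU145, against 12.4% and 15.4% of all tested genes, and 6.06% each way in PC3, against 18.6% and 17.0%. DBF4, the activator of CDC7, changed most: it stood at 52.8 and 40.2 CPM in DU145 sensitive and at 646 and 351 CPM in DU145 resistant libraries (3.42 ± 0.27, adjusted p = 1.16e-05), and at 52.6 and 49.6 CPM against 75.6 and 67.5 CPM in PC3 (0.49 ± 0.24, adjusted p = 0.148). It lies at chromosome 7, 87876216 to 87909553, where 7 of 8 tested neighbours rose in DU145, among them ABCB1, the drug efflux pump, with log2 fold changes of 9.41 in DU145 and 4.99 in PC3. The topoisomerase TOP1 (1.04 ± 0.15, adjusted p = 0.000514) and the repressor E2F7 (0.86 ± 0.28, adjusted p = 0.0388) rose in DU145, and the polymerase delta subunits POLD4 (-0.84 ± 0.24, adjusted p = 0.0232) and POLD2 (-0.78 ± 0.16, adjusted p = 0.00544) fell. In PC3 the clamp loader variant CHTF18 rose (0.61 ± 0.14, adjusted p = 0.00714), and the E2F partner TFDP1 (-0.65 ± 0.19, adjusted p = 0.0198) and the origin subunit ORC4 (-0.57 ± 0.13, adjusted p = 0.00589) fell.

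Of 25 other nucleotide genes, 5 rose and 1 fell in DU145 and 1 rose and 3 fell in PC3 (medians 0.18 and -0.05), or 20% and 4% against 12.4% and 15.4% of all tested genes, and 4% and 12% against 18.6% and 17.0%. CTP synthase CTPS1 rose in DU145 from 106 and 89.2 CPM to 291 and 197 CPM (1.32 ± 0.19, adjusted p = 0.000656) and was 189 and 173 CPM against 157 and 131 CPM in PC3. UMPS, which makes UMP, rose in DU145 (0.67 ± 0.19, adjusted p = 0.0232) and fell in PC3 (-0.68 ± 0.19, adjusted p = 0.0178). Of the purine route, PFAS rose in DU145 (0.81 ± 0.22, adjusted p = 0.0185), ADSL rose in both lines (0.69 ± 0.20, adjusted p = 0.0261 and 0.62 ± 0.20, adjusted p = 0.033), and IMPDH1 fell in both (-0.43 ± 0.14, adjusted p = 0.036 and -0.46 ± 0.13, adjusted p = 0.0226). CMPK1, a pyrimidine nucleotide kinase, fell in PC3 (-0.73 ± 0.13, adjusted p = 0.00138).

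Of 20 mitotic genes, 2 rose in DU145, TPX2 (0.61 ± 0.18, adjusted p = 0.0312) and AURKB (0.51 ± 0.16, adjusted p = 0.0327), and 5 rose in PC3, the largest UBE2C (1.12 ± 0.18, adjusted p = 0.000878), AURKB (0.87 ± 0.16, adjusted p = 0.00185) and FOXM1 (0.79 ± 0.19, adjusted p = 0.00832). The rises made up 10% and 25% of the 20, against 12.4% and 18.6% of all tested genes. The median log2 fold change of the 20 was 0.11 in DU145 and 0.26 in PC3.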

How the data were processed

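Groups were taken from the sample labels. The deposited values are unnormalized counts per gene in each library. Total RNA was the input to a SMART-seq kit per the labels, and the submitters' processing notes name Bowtie and hg38. The sources used here give no Bowtie version, counter, annotation or strand setting. The sources name no molecular identifiers. The paper's text describes single cell data, which were not analysed here.

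Genes were filtered by filterByExpr by group (20238 of 60554 kept), scaled by TMM (factors 0.951 to 1.038) and fitted together for the 8 libraries in edgeR 4.0.16 under R 4.3.3 (quasi-likelihood, Benjamini-Hochberg adjustment over all tested genes, threshold 0.05). The fit had 4 residual degrees of freedom and a common biological coefficient of variation of 17.1%. The SE was taken from F as |log2 fold change|/√F. Counts within a group differed beyond sampling noise (chi-square per degree of freedom 18.4 to 47.9). The labels number the libraries but do not say what a number shares. Deviations of same-numbered libraries from their group means correlated in all 6 pairs of groups (0.453 in DU145, 0.132 in PC3, 0.105 to 0.168 across the lines), so values with the number as a block are given beside those without it. The steps were tested on simulated data. The members and lists (156 genes in 12 lists) were chosen with earlier results of these data known. Values per library are given, by rule, for up to 3 members per subgroup, line and direction with the largest change among those past the threshold whose groups do not overlap, for MCM2 to MCM7, CDC6, CDT1, PCNA, RRM1, RRM2, TYMS, TK1 and E2F1 whatever they show, and likewise from the other lists. Alternatives were RLE scaling, DESeq2 1.42.0, no filter, 1 CPM in 4 libraries, 1 line alone, a replicate block, each library left out, and an adjusted p under 0.01. Annotation was GENCODE 44.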

Additional observations from a re-analysis of the deposited data

Results flagged for a closer look

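For 11 of the 52 genes the resistant over sensitive log2 fold change differed between the lines by edgeR's test of the difference itself, PC3 minus DU145. It was higher in PC3 for RFC2 (1.91, adjusted p = 0.000484), GINS4 (1.44, adjusted p = 0.00173), MCM4 (1.13, adjusted p = 0.0264), GINS1 (1.03, adjusted p = 0.0126) and GMNN (0.97, adjusted p = 0.00946). It was lower in PC3 for TIPIN (-1.56, adjusted p = 0.00343), RPA2 (-1.31, adjusted p = 0.00216), E2F8 (-1.26, adjusted p = 0.0317), CLSPN (-0.95, adjusted p = 0.0236), RRM1 (-0.88, adjusted p = 0.0261) and POLE2 (-0.87, adjusted p = 0.0167). E2F8, a repressor of the E2F family, passed in neither line in the fit of all 8 libraries, but as lower in PC3 when PC3 was fitted alone (adjusted p = 0.0221) and with DESeq2 (adjusted p = 0.0358), without a filter (adjusted p = 0.00498) and with the replicate block (adjusted p = 0.00285, and as higher in DU145 at 0.0368). It stood at 24.3 and 16.9 CPM against 36.9 and 21.9 CPM in DU145 and 37.8 and 34.0 CPM against 26.0 and 16.9 CPM in PC3. The groups held 2 libraries each, too few to look for a library that stands apart.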

How the results depend on the processing

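Leaving out 1 library at a time gave 0 to 13 members higher and 0 to 4 lower in DU145 (median log2 fold change 0.081 to 0.55), 3 to 12 higher and 0 to 5 lower in PC3 (median 0.0358 to 0.33), and 2 to 7 higher and 2 to 14 lower between the lines (median -0.31 to 0.09). No called change turned direction, and of the calls 0 of 13 in DU145, 3 of 12 in PC3 and 4 of 11 between the lines passed in all 8 fits. Uncalled values that changed sign ranged in DU145 from -0.0214 to 0.56 for CDC45, -0.0143 to 0.14 for CMPK1, -0.30 to 0.37 for FOXM1, -0.24 to 0.70 for GINS2, -0.32 to 0.20 for GINS4, -0.0034 to 0.33 for MCM2, -0.0191 to 0.71 for MCM3, -0.36 to 0.18 for MCM4, -0.0249 to 0.41 for MCM5, -0.0106 to 0.41 for MCM6, -0.11 to 0.53 for PCNA, -0.20 to 0.33 for RRM1 and -0.11 to 0.82 for RRM2. They ranged in PC3 from -0.43 to 0.0923 for MCM2, -0.45 to 0.17 for MCM6, -0.22 to 0.39 for RFC3 and -0.31 to 0.0657 for RRM2. Between the lines they ranged from -0.14 to 0.20 for CDC7. These genes are not all that changed sign. Others were, for example, MCM10, POLD1 and DUT in DU145, POLD1, DUT and WDR76 in PC3, and MCM3 and PCNA between the lines. Without a filter, 5 members gained a call and 1 lost it in DU145, while 7 gained one in PC3 and 8 between the lines. In that fit 6 members were lower in PC3 and 12 lower between the lines. With 1 line alone, 5 calls were lost in DU145, where 5 members were higher, and 4 were gained in PC3, where 5 were lower. With DESeq2, 2 calls were gained in DU145, 2 in PC3, where 5 were lower, and 3 between the lines. At an adjusted p under 0.01, 0 were higher and 0 lower in DU145, 1 was lower in PC3, and 3 were higher and 2 lower between the lines. RLE scaling changed no member's call. With the replicate number as a block, 20 members were higher in DU145, 19 higher and 11 lower in PC3, and 9 higher and 17 lower between the lines, and every earlier call was kept. The cause of these changes was not tested. Other than for the block, the shares of all tested genes that passed in these settings are not given here. The counts of members therefore do not show whether a setting changed the replication genes more than other genes. With neighbours within 250 or 1000 kb, windows chosen after the values were seen, the Pearson correlation was 0.72 and 0.843 in PC3 and 0.321 and 0.646 in DU145. With 2 libraries a group, values that overlap were not shown to be equal.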
